A study of Mus musculus with 2 samples.

Results

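Keratins are the intermediate filament proteins of epithelial cells, and keratin-associated proteins (Krtap genes) cross-link keratin filaments in the hair shaft. The genes described here are the 69 mouse genes whose name in the scanner file of tumour 2 starts with Krt or Krtap followed by a digit, of 28784 genes or transcripts on the array. They comprise 42 keratins and 27 Krtap genes, measured by 84 probes, each printed once. Both tumours grew in male C57BL/6J mice that received 1000000 cells of RMS3, named in the labels as a PRMS cell line, under the skin in 200 µl of phosphate-buffered saline, and both were taken 2 weeks later. The labels describe injected tumours in most fields and metastatic ones in the treatment protocol, give no age, and describe no untreated tissue, cultured cells or second line. All tumour cells therefore trace to a single line, and the tumours form 1 group of 2. The family was chosen by the measured difference of Krt5 and Krt14 between these tumours, so the values of these and the other members are descriptions. A difference sets 1 tumour against the other, and no p-value can be given.

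Keratin filaments assemble only from pairs of a type I (acidic) and a type II (basic to neutral) chain, so genes of both types are read together. Krt5 and Krt14 form the pair of the basal layer of stratified epithelia such as epidermis, and Krt8 and Krt18 form the pair of simple, single-layered epithelia. Krt6a, Krt6b, Krt16 and Krt17 are induced in wounded or rapidly dividing epidermis, while Krt1, Krt2 and Krt10 belong to its upper layers. Hair keratins and Krtap proteins build the hair cortex and cuticle.

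Levels are log2 of the processed signal relative to the 75th percentile of each array, and a positive difference means a higher level in tumour 2 than in tumour 1. A level compares the tumours for 1 probe, not 1 gene with another. Of the spots that are not controls, 66.1% were well above background in tumour 2 and 62.3% in tumour 1. The array of tumour 1 had 1128 outlier-flagged spots, against 69 on the array of tumour 2, and they lay together. Values are therefore taken from spots more than 2 rows or columns away from a flag, which left a spot for 50 of the 69 genes. Among spots well above background on array 2, 31.4% of those near a flag were at least 2-fold higher in tumour 2, against 5.08% of those away from flags. The standard deviation of repeat spots of 1 probe away from flags was 0.11 on array 2 and 0.23 on array 1, which gives 0.25 for a difference, a technical error only. Among the 10 control transcripts added to each RNA, 7 were 0.83 to 0.98 higher on the array of tumour 2. The others went the other way, at -0.28, -0.35 and -1.09. A scale set on the 7 would lower every difference given here and take Krt6b and Krt19 under 2-fold. It would also put the median of all genes, and of each list of other genes (0.62 at most), on the side of tumour 1. Krt8 and Krt18, at -0.19 and -0.06, would move further to that side. No such scale was used.

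Away from flags, 23 of the 50 genes (46%) were above background in both tumours, against 61.2% of all genes. Of these 23 genes, 12 were higher in tumour 2, where 48.4% of all detected genes were, and 11 in tumour 1, with a median difference of 0.12, against -0.01 over all 13944 genes detected. At least 2-fold higher in tumour 2 were 4 of the 23, namely Krt14, Krt5, Krt6b and Krt19, where 2.59% of all detected genes passed the same limit. At least 2-fold higher in tumour 1 were another 4, namely Krtap6-1, Krt2, Krtap6-3 and Krtap9-1, against 3.87% of all detected genes. Over all unflagged spots, 29 of 68 genes were above background in both tumours (59.2% of all genes), 3 in tumour 2 alone (4.56% of all genes) and 1 in tumour 1 alone (1.62%). There, 6 of the 29 had at least a 2-fold higher level in tumour 2 (5.15% of all detected genes) and 4 in tumour 1 (6.44%), the additions being Krt16 and Krt87. Since a large difference chose the family, nothing is read from these shares.

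**Figure D1:**
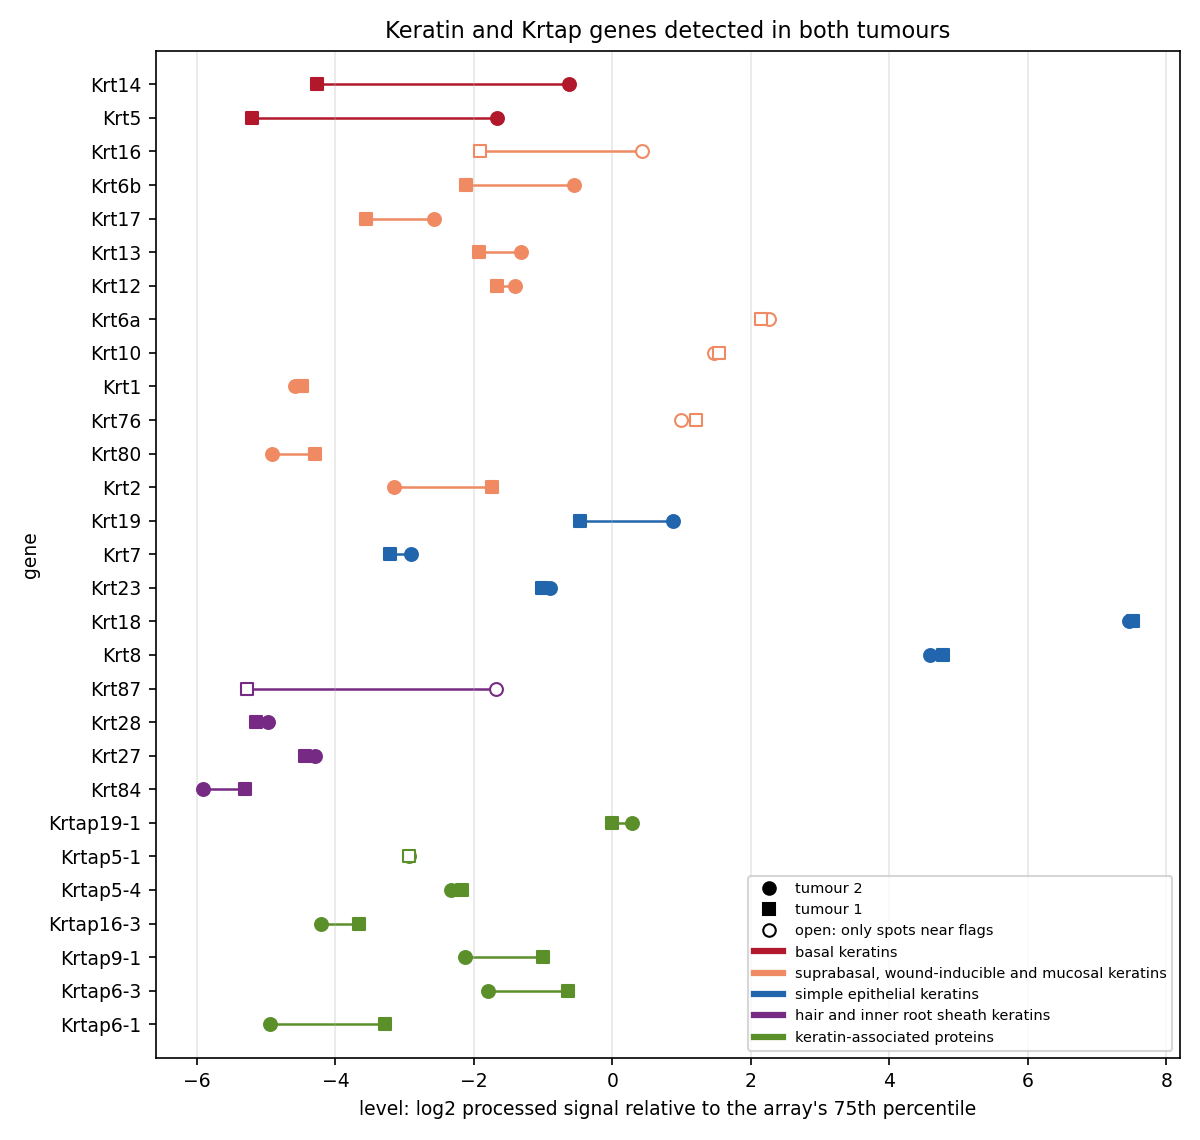
Level of each keratin and Krtap gene detected in both tumours (log2 relative to the 75th percentile of the array), with circles for tumour 2 and squares for tumour 1. Krt14 and Krt5 are 3.64 and 3.55 higher in tumour 2, whereas the 2 symbols of Krt18 and of Krt8 lie within 0.19 of each other; open symbols are genes measured only near flags.

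The basal pair, whose difference chose the family, had the widest gap among the members detected in both tumours away from flags. Krt14, the type I chain, had a processed signal of 587 in tumour 2 and 51.8 in tumour 1, or levels of -0.62 in tumour 2 and -4.26 in tumour 1. Its difference was 3.64, a 12.5-fold higher level in tumour 2. Krt5, the type II partner, had a signal of 285 in tumour 2 and 26.9 in tumour 1, with levels of -1.66 in tumour 2 and -5.21 in tumour 1. Its difference was 3.55, or 11.7-fold. Both spots were well above background on both arrays, and in tumour 1 the Krt5 spot lay close to the lowest level so called there, which was -5.78. The surroundings of the 2 spots did not share the gap. Within 3 rows and columns of the Krt5 spot, the median difference of 33 spots was -0.01, and 2 of them were at least 2-fold higher in tumour 2. Around the Krt14 spot, the median over 35 spots was 0.17, with 3 past 2-fold. When the background was corrected by the normexp model fitted without the high-background spots of array 2, the difference was 2.08 for Krt5 and 2.78 for Krt14.

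Krt15, the third basal keratin, was measured by a spot near flags only. It was above background in tumour 2, with a signal of 14.7, and not in tumour 1, with 3.77, and the signal in tumour 2 was too low to give a fold. Of the 20 spots around it, 12 were at least 2-fold higher in tumour 2, with a median difference of 1.72.

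Itgb4, Col17a1, Lor and Ivl, the keratinocyte markers other than keratins detected in both tumours away from flags, were higher in tumour 2. Each differed by less than 2-fold, and Lor by less than the technical error. Trp63, the transcription factor that defines stratified epithelial cells, was not above background in either tumour. Itgb4, a hemidesmosome integrin, had levels of -0.14 in tumour 2 and -0.54 in tumour 1, and Col17a1, the hemidesmosome collagen, had -1.57 in tumour 2 and -2.02 in tumour 1. Summed on a linear scale, in multiples of the 75th percentile and with the brightest probe of each gene, the list of Trp63, Itgb4 and Col17a1 reached 1.30 in tumour 2 and 0.986 in tumour 1, with Trp63 below background. The differentiated markers Lor, Ivl, Flg and Krtdap summed to 4.98 in tumour 2 and 4.68 in tumour 1. Lor, at levels of 2.16 in tumour 2 and 2.10 in tumour 1, made up most of that sum, which therefore says little of the others. Lor, which encodes loricrin, was 0.06 higher in tumour 2, Ivl (involucrin) was 0.26 higher, Flg (filaggrin) was below background in both, and Krtdap was above background in tumour 2 alone. Of the wider list of late differentiation genes, Tchh, Calm4 and Casp14 were likewise above background in tumour 2 alone. Measured near flags, Tgm1 and Sprr2d were 2.34 and 2.03 higher in tumour 2 on the scale of all unflagged spots. Sprr1b, also near flags, went the other way, at -1.48. Away from flags, 11 genes of that list were detected in both tumours, 8 higher in tumour 2 (48.4% of all detected genes) and 3 in tumour 1. Over all unflagged spots, 8 of the 14 detected in both were higher in tumour 2 (33.8% of all detected genes) and 6 in tumour 1. The tumours are bulk tissue, in which fewer cells of a type and less RNA per cell cannot be told apart, and the part of skin cells in these levels was not tested.

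The promoter of Krt5 is shown beside those of the simple pair Krt8 and Krt18, to set a basal keratin with a wide gap between the tumours beside a pair with a narrow one. Each sequence holds the 250 bases before the gene start in RefSeq's GRCm38.p6, read 5′ to 3′ on the strand of the gene. Krt5 lies at chr15:101712906-101713155 on the minus strand, Krt8 at chr15:102004343-102004592 on the minus strand and Krt18 at chr15:102027966-102028215 on the plus strand. Capitals mark ATAAAA, which resembles the TATA box, and GCCNNNGGC, the palindrome bound by AP-2 factors.
Krt5: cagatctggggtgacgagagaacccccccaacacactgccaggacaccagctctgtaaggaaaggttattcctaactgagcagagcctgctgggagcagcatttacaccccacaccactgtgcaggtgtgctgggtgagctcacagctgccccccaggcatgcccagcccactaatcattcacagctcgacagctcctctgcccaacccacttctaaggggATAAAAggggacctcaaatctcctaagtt
Krt8: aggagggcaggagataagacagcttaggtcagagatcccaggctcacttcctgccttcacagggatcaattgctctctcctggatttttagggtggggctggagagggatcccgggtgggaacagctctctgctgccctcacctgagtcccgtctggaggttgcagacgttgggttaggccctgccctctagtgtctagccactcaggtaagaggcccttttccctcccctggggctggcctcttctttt
Krt18: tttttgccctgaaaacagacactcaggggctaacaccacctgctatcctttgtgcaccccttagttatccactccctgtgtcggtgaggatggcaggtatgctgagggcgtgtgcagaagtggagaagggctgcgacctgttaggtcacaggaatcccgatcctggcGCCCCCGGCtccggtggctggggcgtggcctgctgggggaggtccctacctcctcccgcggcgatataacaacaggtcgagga
The search covered both strands, allowed overlaps, and also took in the TATA box TATAAA and the GC box GGGCGG; GCCNNNGGC reads the same on both strands. Krt5 held ATAAAA 29 bases before the start, Krt18 held GCCNNNGGC 83 bases before it, and Krt8 held none of the 4. Among 32851 RefSeq promoter windows, 17.0% held the run marked in Krt5, 13.7% the AP-2 palindrome, 12.4% the TATA box and 32.7% the GC box. A match is a description of these letters only.

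On the scale used here, the simple epithelial keratins were at similar levels in both tumours apart from Krt19. Krt18, type I, had a signal of 159454 in tumour 2 and 183000 in tumour 1 and levels of 7.47 in tumour 2 and 7.52 in tumour 1, so that its difference was -0.06. Krt8, its type II partner, had levels of 4.59 in tumour 2 and 4.78 in tumour 1. Its difference of -0.19 was smaller than the technical error. Its second probe was outlier-flagged and was not used. Krt19, a type I keratin of simple epithelia and of some epithelial stem cells that lacks the usual tail domain, had signals of 1662 in tumour 2 and 723 in tumour 1, and levels of 0.88 in tumour 2 and -0.46 in tumour 1. Its difference of 1.34 set it apart from the pair, and none of the 30 spots around it was 2-fold higher in tumour 2. Krt23, a type I keratin, had levels of -0.90 in tumour 2 and -1.02 in tumour 1. Krt7, a type II keratin of ducts and glands, differed by 0.31 on 1 probe (-2.91 in tumour 2, -3.22 in tumour 1), while a second probe was above background in tumour 1 alone, at least 1.72-fold higher there, so its probes disagreed. In all, 5 of 5 simple keratins with a spot away from flags were detected in both tumours (61.2% of all genes). Their median difference was 0.12. Krt222 was not above background and Krt20, an intestinal and urothelial keratin, had only an outlier-flagged spot.

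Of the wound-inducible keratins, Krt6b, Krt16 and Krt17 had higher levels in tumour 2, while Krt6a gave no settled direction. Krt6b, type II, had signals of 612 in tumour 2 and 230 in tumour 1, and levels of -0.56 in tumour 2 and -2.11 in tumour 1. Its difference was 1.55, but the median of the 29 spots around it was 0.58 and 9 of them passed 2-fold towards tumour 2. Krt17, type I, had levels of -2.58 in tumour 2 and -3.55 in tumour 1. Its difference of 0.97 lay just under 2-fold, and none of the 36 spots around it was 2-fold higher in tumour 2. Krt16, another type I member, was measured near flags only, at 0.43 in tumour 2 and -1.91 in tumour 1 on the scale of all unflagged spots. On that scale, where the median of all genes was -0.18, its difference was 2.34, and 9 of the 34 spots around it passed 2-fold towards tumour 2, with a median of 0.37. Krt6a, the close paralogue of Krt6b, did not share its gap: also near flags, it had 2.26 in tumour 2 and 2.15 in tumour 1, and its difference of 0.11 ranged from -0.67 to 0.17 over 4 settings. The files hold no probe sequences, so how far paralogues (Krt6a with Krt6b, Krt14 with Krt16 and Krt17, and the members of each Krtap family) share signal was not tested.

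The other keratins of upper epidermal and mucosal layers varied in both directions. Krt13, a type I keratin of mucosal layers, had levels of -1.32 in tumour 2 and -1.93 in tumour 1, and Krt12, the type I keratin of the corneal epithelium, had -1.41 in tumour 2 and -1.66 in tumour 1. A second Krt12 probe near flags was above background in tumour 2 alone, at least 2.96-fold higher there. Krt2, a type II keratin of the upper spinous layer (named Krt2-17 in the file), had signals of 101 in tumour 2 and 299 in tumour 1 and levels of -3.15 in tumour 2 and -1.73 in tumour 1. Its difference was -1.42, with a second probe below background in both. That value reversed under normexp fitted on all spots, where it was 1.10, or 0.42 less the median of all genes, and it was under 2-fold under the refitted normexp (-0.99) and with no filter on detection (-0.90). Krt1, the type II chain of the suprabasal pair, gave no settled value. Of its probes, 1 differed by -0.09 (-4.58 in tumour 2, -4.49 in tumour 1). The other had signals of 2.51 in tumour 2 and 40.3 in tumour 1. It was above background in tumour 1 alone, so on that probe Krt1 was at least 2.96-fold higher there. Krt10, its type I partner, was 1.46 in tumour 2 and 1.53 in tumour 1 on a probe near flags, and a dimmer probe away from them was above background in tumour 2 alone, at least 1.01-fold higher there. Krt76, a type II keratin of oral mucosa, had signals of 1593 in tumour 2 and 1780 in tumour 1 near flags. Krt80, a type II keratin, was -4.92 in tumour 2 and -4.29 in tumour 1. Krt4, Krt9, Krt42, Krt75 and Krt78 were below background in both tumours. Together the suprabasal, wound-inducible and mucosal group had 13 members with a spot away from flags. Of these, 7 were detected in both tumours, against 61.2% of all genes. Among the 7, 4 were higher in tumour 2 and 3 in tumour 1, with a median of 0.26.

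**Figure D2:**
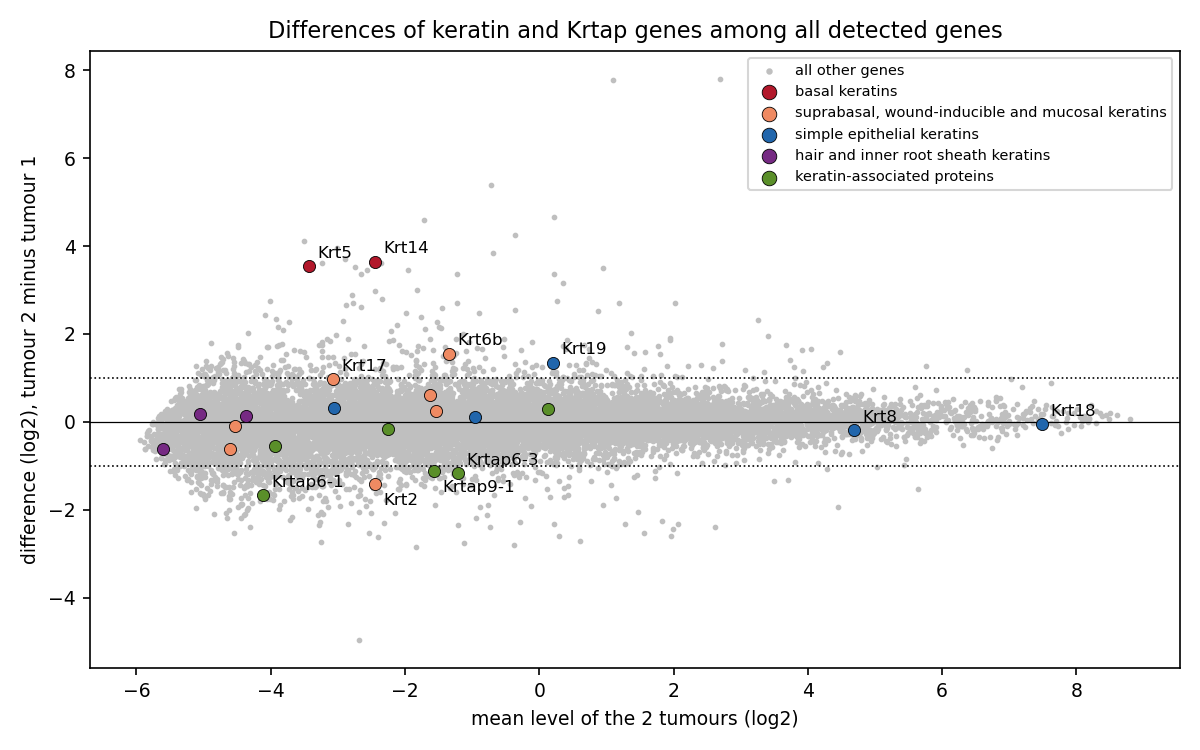
Difference (log2, tumour 2 minus tumour 1) against the mean level of the 2 tumours for all 13944 genes detected away from flags (grey) and the 23 keratin and Krtap genes among them (coloured by group). Dotted lines mark 2-fold; Krt5 and Krt14 sit at 3.55 and 3.64 at low mean levels, and Krt18 and Krt8 lie near 0 at high ones.

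Hair and inner root sheath keratins were mostly below background. Of 12 with a spot away from flags, 9 were below background in both tumours, against 7679 of 22778 over all genes. Among the 9 were Krt25 and Krt71 of the inner root sheath and Krt31, Krt35 and Krt85 of the hair shaft. The 3 detected were dim in both tumours. Krt27 had levels of -4.30 in tumour 2 and -4.44 in tumour 1, Krt28 had -4.97 in tumour 2 and -5.15 in tumour 1, and Krt84 had -5.92 in tumour 2 and -5.30 in tumour 1. Krt87, a type II hair keratin (named Krt2-25 in the file), was measured near flags only, with signals of 251 in tumour 2 and 19.9 in tumour 1. Its difference was 3.60 on the scale of all unflagged spots. Of the 24 spots around it, 7 passed 2-fold towards tumour 2, and under the refitted normexp the difference was 1.86. Krt33b, a type I hair keratin, was above background in tumour 2 alone, also near flags, at least 2.21-fold higher there. Krt26 and Krt34 had spots near flags only and were below background in both tumours. Hoxc13, a regulator of hair keratin genes, was below background in both tumours.

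Most detected Krtap genes had the higher level in tumour 1, a direction that depended on the background correction. Of 18 with a spot away from flags, 12 were below background in both tumours, against 7679 of 22778 over all genes. Of the 6 detected in both, 1 was higher in tumour 2 and 5 in tumour 1, with a median of -0.83. Krtap6-1, of the high-glycine-tyrosine class, had 2 detected probes of 4, with signals of 23.6 and 36.1 in tumour 2 and 71.4 and 147 in tumour 1. Its differences on them were -1.45 and -1.88, and the gene's difference was -1.67. Krtap6-3, of the same class, had signals of 259 in tumour 2 and 641 in tumour 1, so that its difference was -1.16. Krtap9-1 had signals of 206 in tumour 2 and 496 in tumour 1, which gave -1.13. All 3 had the higher level in tumour 1, on spots whose surroundings had median differences between -0.01 and 0.21. Krtap19-1 was the exception, at 0.28 in tumour 2 and -0.01 in tumour 1, with a second probe below background in both. Krtap16-3 (-4.20 in tumour 2, -3.66 in tumour 1) and Krtap5-4 (-2.33 in tumour 2, -2.17 in tumour 1) differed by less than 2-fold. Near flags, Krtap5-1 was -2.94 in both tumours, Krtap21-1 was above background in tumour 1 alone, at least 3.59-fold higher there, and Krtap8-1 in tumour 2 alone, too low for a fold. The other 18 Krtap genes were below background in both tumours over all unflagged spots.

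Dim genes as a whole leaned to tumour 1. Among the 5321 detected genes with a mean level under -2, 3.38% passed 2-fold towards tumour 2 and 7.55% towards tumour 1. Among 910 olfactory receptor genes, a large family not tied to skin, 64 of 665 with a spot away from flags were detected in both tumours, and 1 of them passed 2-fold towards tumour 2 and 16 towards tumour 1, with a median of -0.29. The part of this lean in the Krtap values was not tested. With normexp fitted on all spots, which moved the median of all genes to 0.68, the 3 Krtap differences became 2.06 for Krtap6-1, 0.055 for Krtap6-3 and 0.42 for Krtap9-1, so the sign turned. The median of the Krtap genes became 1.00 under that setting, and -0.50 under normexp refitted without high-background spots, where Krtap6-1 was at -0.77. With no filter on detection it was -0.40, and Krtap6-1 was at -0.88. Less the median of all genes, under normexp on all spots, Krtap6-1 was at 1.38, whereas Krtap6-3 at -0.63 and Krtap9-1 at -0.26 stayed on the side of tumour 1.

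**Figure D3:**
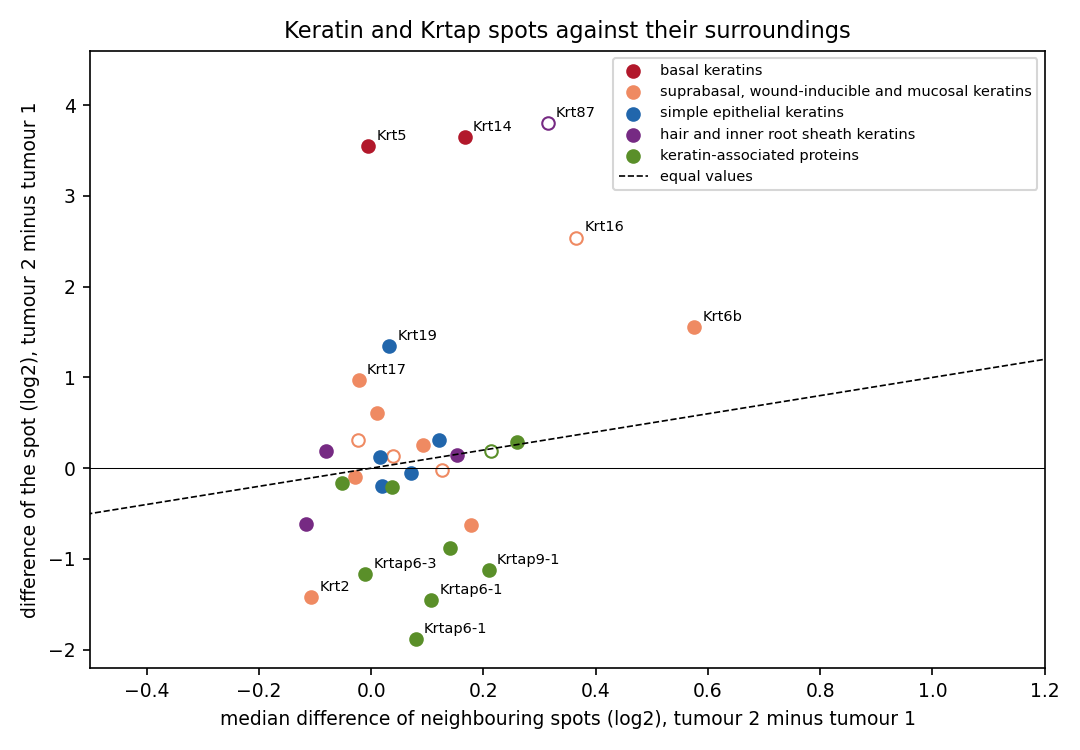
Difference of each member spot above background in both tumours (log2, tumour 2 minus tumour 1) against the median difference of the spots within 3 rows and columns, both on the scale of spots away from flags; open points lie near flags and the dashed line marks equal values. Krt5, Krt14 and Krt19 stand at 3.55, 3.64 and 1.34 over surroundings of -0.01, 0.17 and 0.03, whereas Krt6b stands at 1.55 over 0.58.

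Several of these genes lie next to each other on the RefSeq map. In the type I cluster, Krt15, Krt19, Krt9, Krt14, Krt16, Krt17 and Krt42 follow each other with no other protein-coding gene between them. Within that run Krt19, Krt14, Krt16 and Krt17 had differences of 1.34, 3.64, 2.54 and 0.97 on the scale of spots away from flags, the value of Krt16 coming from a spot near flags, while Krt9 and Krt42 were below background in both tumours. In the type II cluster, Krt6b, Krt6a, Krt5 and Krt71 are adjacent, with differences of 1.55, 0.31 (near flags) and 3.55 on the same scale for the first 3, and Krt71 below background in both tumours. Krt8 and Krt18 are neighbours too, with -0.19 and -0.06, and so are Krt27 and Krt28, with 0.14 and 0.18. Whether neighbours are alike was not tested. Krt5 and Krt14, partners in the filament, lie on different chromosomes.

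Desmosomes are the junctions that anchor keratin filaments. Of 14 genes of desmosomes and epithelial adhesion, 8 (Cdh1 among them) were detected in both tumours, where 61.2% of all genes were. Of these 8, 7 were higher in tumour 2 (48.4% of all detected genes) and 1 in tumour 1, with a median of 0.48. Dsp, the desmoplakin that binds the filaments, had -2.53 in tumour 2 and -3.35 in tumour 1, Pkp2 (a plakophilin) had 1.14 in tumour 2 and 0.60 in tumour 1, and Perp, a desmosomal membrane protein, had 0.34 in tumour 2 and -0.79 in tumour 1. Perp was the only one of the 8 past 2-fold, and over all unflagged spots its difference was under 2-fold (0.93). Away from flags, the other 6 genes, which include every desmosomal cadherin with a spot there, were below background in both tumours. Of the hemidesmosome and basement membrane genes, 8 of 9 were detected in both tumours with a median of 0.29 and none past 2-fold. Among 10 keratin partners and modifiers, a list that shares Plec, Ppl, Evpl and Dsp with these, 8 of 9 were detected, with a median of 0.62. Pnn (pinin, a splicing-associated protein first described at desmosomes) was 3.37 in tumour 2 and 0.67 in tumour 1, and Krtcap3 was -3.29 in tumour 2 and -2.27 in tumour 1.

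Genes of the epithelial programme were detected in part, as were genes in general. Away from flags, 61.2% of all genes were detected in both tumours, and 48.4% of the detected ones were higher in tumour 2. Of 10 epidermal transcription factors with a spot away from flags, 6 were detected in both tumours, 5 higher in tumour 2 and 1 in tumour 1, none past 2-fold, with a median of 0.15. Klf5 was 0.03 in tumour 2 and -0.39 in tumour 1, and Grhl1 was -3.96 in tumour 2 and -3.56 in tumour 1. Of 19 genes of the cornified envelope and late differentiation, 11 were detected in both tumours with none past 2-fold and a median of 0.26. Another 4 (Tchh, Krtdap, Calm4 and Casp14, named after their values were seen) were above background in tumour 2 alone and none in tumour 1 alone, against 3.39% of all genes in tumour 2 alone and 1.67% in tumour 1 alone. Near flags, beside Tgm1 (a cross-linking enzyme of the envelope) and Sprr2d (an envelope precursor), Sprr1b, another precursor, differed by -1.48. Of 11 simple epithelium genes 5 were detected in both, with a median of 0.32. Epcam, an adhesion molecule of simple epithelia, was -3.32 in tumour 2 and -3.64 in tumour 1, and Esrp2, an epithelial splicing regulator, was -4.48 in tumour 2 and -5.75 in tumour 1. Of 12 hair follicle genes 6 were detected in both, 2 higher in tumour 2 and 4 in tumour 1, with a median of -0.16.

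**Figure D4:**
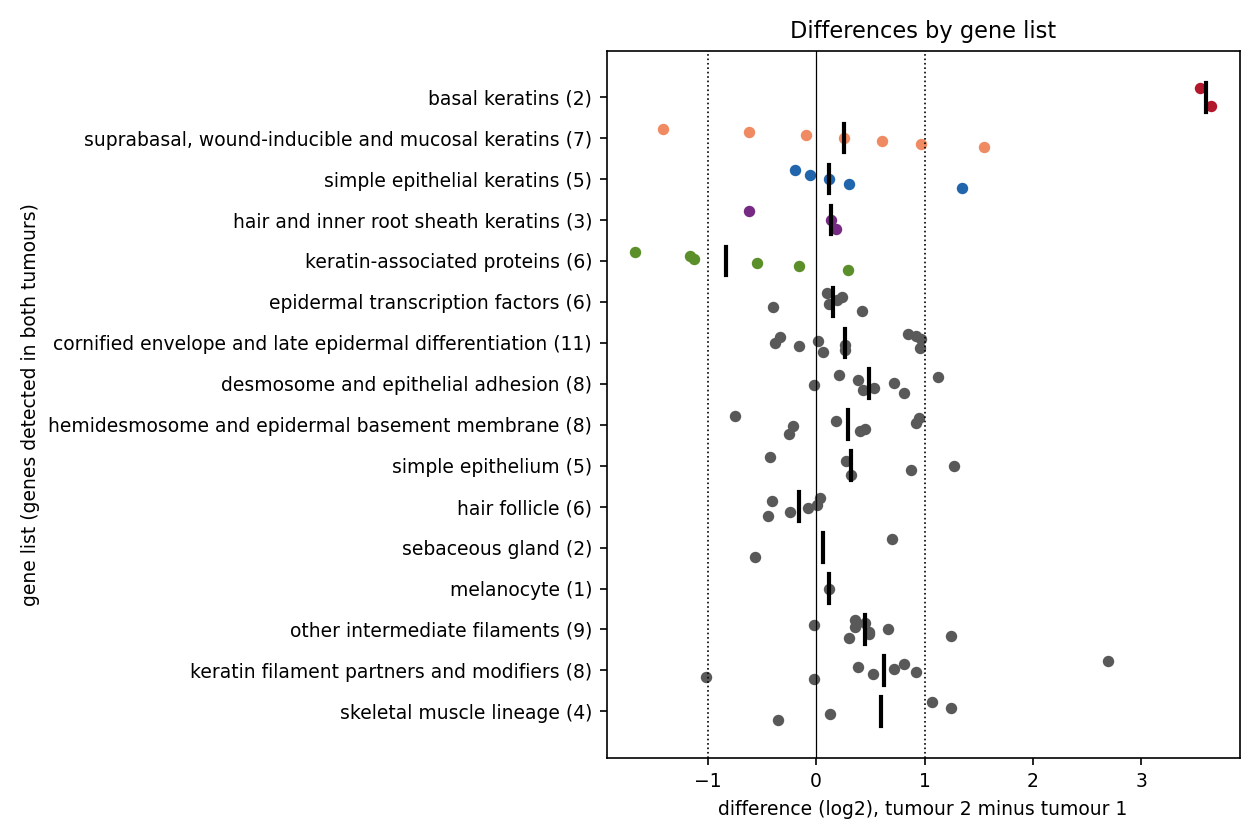
Differences (log2, tumour 2 minus tumour 1) of the genes detected in both tumours away from flags, 1 row per group of keratins or list, with the number of genes in brackets, a bar for the median and dotted lines at 2-fold. Basal keratins stand at a median of 3.59 and Krtap genes at -0.83, while the lists of other genes have medians between -0.16 and 0.62.

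The tumours also carried intermediate filaments of other lineages. Vim (vimentin, of mesenchymal cells) had levels of 2.37 in tumour 2 and 2.07 in tumour 1, and Des (desmin, of muscle) had -1.17 in tumour 2 and -2.41 in tumour 1. Nes (nestin, of progenitor cells) was 3.03 in tumour 2 and 2.54 in tumour 1. Over the list of other intermediate filaments, which also holds the nuclear lamins, 9 of 14 genes were detected in both tumours, against 61.2% of all genes. Of these 9, 8 were higher in tumour 2 (48.4% of all detected genes) and 1 in tumour 1, with a median of 0.45. Des alone passed 2-fold. The muscle regulators Myog (-2.11 in tumour 2, -2.24 in tumour 1) and Myod1 (-5.59 in tumour 2, -5.24 in tumour 1) and the embryonic myosin Myh3 (-1.05 in tumour 2, -2.13 in tumour 1) were detected in both tumours.

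The direction of the basal pair, Krt6b and Krt19 held in each processing tried in which they could be measured, while their sizes moved. Each has 1 probe, printed once, so settings that change only the detection call or the choice of probe could not alter the difference itself. A change of scale factor alone could not alter it relative to the median of all genes. Those settings therefore say nothing on how firm the values are. Relative to the median of all genes, the difference of Krt14 lay between 2.37 and 3.80 over 12 settings and that of Krt5 between 2.09 and 3.70 over 13. For Krt6b the range was 0.92 to 1.71, and for Krt19 the lowest value was 0.25, the lowest of each being found under normexp fitted on all spots. Krt18 ranged from -1.71 to 0.10 and Krt8 from -1.90 to -0.03.

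**Figure D5:**
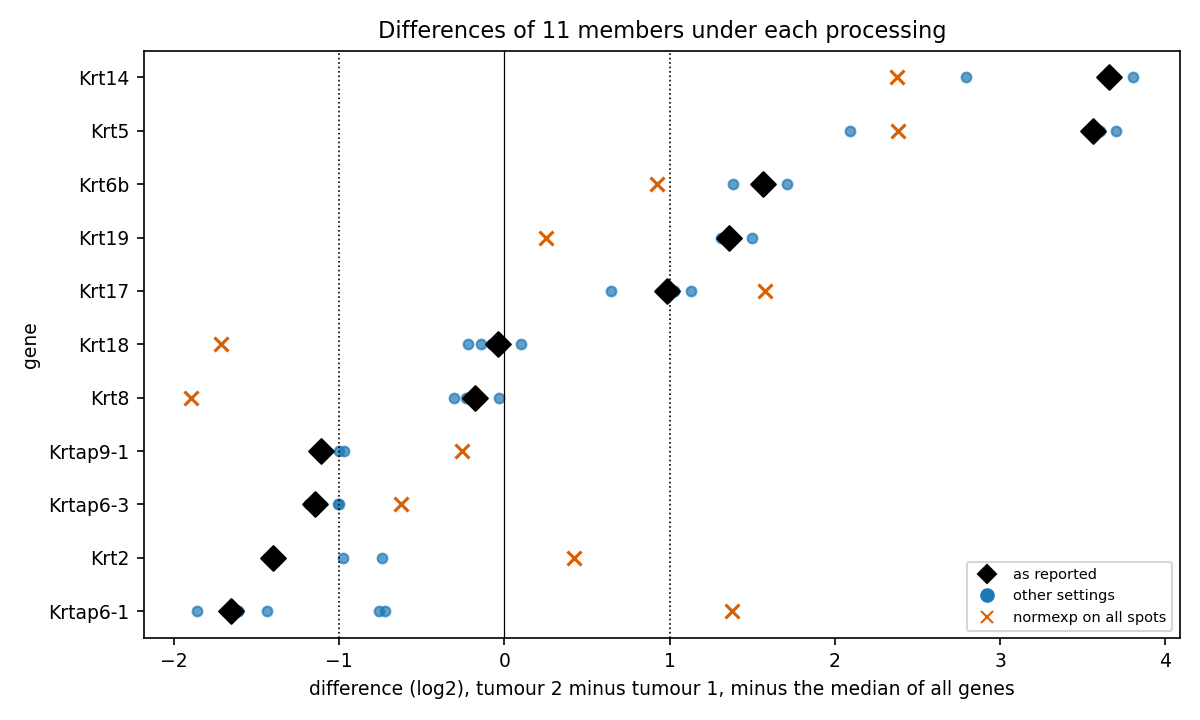
Difference (log2, tumour 2 minus tumour 1, less the median of all genes) of 11 members under each processing, with black diamonds for the values reported, circles for other settings, crosses for normexp fitted on all spots and dotted lines at 2-fold. Krt14 and Krt5 stay at or above 2.09 in each setting run, while Krt2 and Krtap6-1 change side only at the cross.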

How the data were processed

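Each of 2 tumours was hybridised to 1 single-colour (Cy3) Agilent mouse array, per the labels' protocols from 1.0 µg of total RNA. The deposited intensity values come from Agilent Feature Extraction, release 9.1.3.1 by the headers of the files and 8 per the submitters' processing notes. The deposited value table equals the processed signal intensity at 100% of spots, linear and uncentred, with column medians of 67.5 in tumour 2 and 63.3 in tumour 1. Levels were log2 of the processed signal minus the 75th percentile of the array over non-control spots. Left out were outlier-flagged spots and spots within 2 rows and columns of a flag of array 1 or of an array 2 spot with local background above 100. A probe counted as detected when 50% or more of the spots left for it passed the scanner's call of well above background, a gene when a probe was detected on both arrays. The difference is the median over detected, unsaturated probes. Genes with no such spot are given from all unflagged spots. A gene above background in 1 tumour received a lower bound against the lowest level called above background on the other array. Names were updated through RefSeq's GRCm38.p6 table, which matched 60 of the 84 member probes and renamed 11 genes, and 53 of 69 members had a promoter there. Every member may be named, and of other lists the first 4 genes and those past 2-fold, beside markers. Lists and members were chosen with earlier results of these data known. Python 3.11.15, R 4.3.3 and limma 3.58.1 (normexp with offset 50, quantile, cyclic loess) were used, and the procedure was tested on simulated data. No test was run, and precision is limited by having 2 arrays.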

Additional observations from a re-analysis of the deposited data

Results flagged for a closer look

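Keratin genes carried in the file under other names fall outside the name rule, and 3 of these 12 probes gave signal above background. The Krt86 probe, near flags, had a level of -1.65 in tumour 2 and was not above background in tumour 1. The first Krtap31-1 probe, also near flags, had -4.22 in tumour 2 and was not above background in tumour 1. The second Krtap31-1 probe, away from flags, had -4.90 in tumour 2 and -4.10 in tumour 1. No control sample exists to set these levels against.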

How the results depend on the processing

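Without tumour 1 or without tumour 2, the number of members detected was 23 to 24. Away from the reported setting, single-gene and group values moved by less than the technical error in 289 cases, moved by more in 50 and reversed in 4, and the cause was not tested. Only a value of at least 2-fold as reported could count as reversed, so smaller values that changed sign are among the 289 or the 50. Under normexp fitted on all spots, the median of the Krtap genes went from -0.83 to 1.00 and Krt1 from -0.09 to 2.75. A change of detection call or of probe choice cannot move a detected gene with 1 probe, so part of the 289 was fixed in advance. The reversals were all under normexp fitted on all spots, which gave 1.10 for Krt2, 2.06 for Krtap6-1, 0.055 for Krtap6-3 and 0.42 for Krtap9-1. Under that setting 16 members passed 2-fold towards tumour 2 and 2 towards tumour 1, and the median of the members was 1.60. The list medians were then 2.43 for epidermal transcription factors, 0.66 for the cornified envelope, 1.93 for desmosomes, 2.37 for simple epithelium, 1.54 for hair follicle, -0.063 for other intermediate filaments and 1.54 for keratin partners. Refitting normexp without high-background spots left 2 members 2-fold higher in tumour 1. With lower rows only, which hold fewer spots, 11 members were detected, 1 was 2-fold higher in tumour 2 and the median was -0.19. With the brighter 50% of probes, which drops Krt5 and Krt14, 1 was 2-fold higher in tumour 2 and 0 in tumour 1, and the hemidesmosome median was -0.035. With no detection filter the medians were -0.36 for the members, 0.20 for desmosomes and 0.27 for keratin partners. No paired analysis was possible because the tumours form 1 group. Signal over background limits the dim members, most of all hair keratins and Krtap genes.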

Other observations

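Markers of other skin cells were mostly below background, where 61.2% of all genes were detected in both tumours away from flags. Of the melanocyte genes, Dct, Tyr and Tyrp1, the enzymes of pigment synthesis, were below background in both tumours, and of 5 with a spot away from flags 1 was detected in both. Of 6 sebaceous gland genes 2 were detected in both tumours, while Mc5r, Awat2 and Scd3 were below background in both.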
